A study of Rattus norvegicus with 12 samples.

Results

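The acetylated regions of rat chromosomes 10 and 12 were examined in primary vascular smooth muscle cells (VSMCs), which give the artery wall its tone and strength. A region here is a stretch in which the peaks of any of 12 deposited lists overlapped by at least 1 bp, and regions were kept when their chromosome was 10 or 12. This gave 2759 of the 23333 regions of the series, 1938 on chromosome 10 and 821 on chromosome 12. The other 18 chromosomes from 1 to 20 held 20228 regions and served for comparison. The 346 regions on X and Y were left out.

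The lists came from CUT&Tag, a method that directs a transposase to antibody-bound chromatin, where it inserts sequencing adapters into nearby DNA. The marks were acetylation of lysine 23 and of lysine 27 of histone H3 (H3K23ac and H3K27ac) and of lysine 5 of histone H4 (H4K5ac). Each mark was profiled in 2 libraries of cells labelled NC and 2 of cells labelled SIANK. The series concerns aneurysmal aortas, and the labels call all libraries primary rat VSMCs without naming a strain, an age, the meaning of either condition label or the source of the replicates, so tests over libraries measure a spread that may be technical.

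Acetylation of histone tails loosens the hold of histones on DNA and is recognised by bromodomain proteins that help start transcription. H3K27ac marks active promoters and enhancers, while H3K23ac and H4K5ac are also found at active chromatin. Acetylated regions gather where genes lie close together, and chromosomes differ in how closely their genes lie. Of genes known for a role in arterial smooth muscle, the RefSeq table for the GRCr8 assembly places Myh11 (smooth muscle myosin heavy chain), Myocd (myocardin, a coactivator of contractile genes) and Col1a1 (a collagen I chain) on chromosome 10, and Eln (elastin) on chromosome 12. Chromosome 10 also carries the histone acetyltransferase genes Crebbp, Kat2a and Kat7 and the deacetylase gene Hdac5. In all, 7 genes of the 50 in 3 lists (smooth muscle contractile, aortic matrix and histone acetylation) lay on chromosome 10 and 1 on chromosome 12. Of all coding genes of chromosomes 1 to 20, chromosome 10 held 8.08% and chromosome 12 held 3.04%. The build of the peak positions is not given in the sources used here, so no region was tied to a gene and no sequence is shown.

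The lists were very unequal in length. H3K23ac lists held 10720 to 17141 peaks and H4K5ac lists 100 to 1711. For H3K27ac, the libraries numbered 1 held 2644 (NC) and 4823 (SIANK) peaks and those numbered 2 held 14034 and 15413. No read count or score accompanies a peak, so depth is unknown. Differences in list length by sequencing depth and by amount of marked chromatin cannot be told apart.

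Chromosome 10 had the highest region density of chromosomes 1 to 20 and chromosome 12 the second highest. There were 17.2 regions per Mb on chromosome 10 and 15.6 on chromosome 12, where the span of a chromosome runs to the end of its last region (113 and 52.7 Mb). The next in order were chromosomes 19 and 20, at 12.46 and 12.42 per Mb, and the lowest was chromosome 15 at 5.86. Over the other chromosomes together the density was 8.27 per Mb, so that chromosome 10 held 2.08 times and chromosome 12 held 1.89 times as many regions per Mb. They held 8.43% and 3.57% of the regions of chromosomes 1 to 20 on 4.31% and 2.02% of the span. Both chromosomes were chosen by this density of merged peaks over all 12 lists, so the values are a description and carry no test. Covered by regions were 1.97% and 1.68% of their spans, against 0.885% elsewhere.

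Set against gene number, both chromosomes lay within the range of the others, but chromosome 12 kept rank 2 and only chromosome 10 fell in rank. GRCr8 places 1788 protein-coding genes on chromosome 10 and 672 on chromosome 12, which is 11.1% of the coding genes of chromosomes 1 to 20. Only the chromosome of each gene was used, not its position. There were 108 regions per 100 coding genes on chromosome 10, the ninth highest of 20 values, and 122 on chromosome 12, the second highest after chromosome 6 (135). Chromosome 19, next after 12 in density per Mb, had 89.2. The other 18 chromosomes together had 103 and ranged from 82.3 to 135. Across the 20 chromosomes the number of regions followed the number of coding genes (Pearson r = 0.97, Spearman rho = 0.92), a description in which both numbers also grow with the length of the chromosome.

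**Figure D1:**
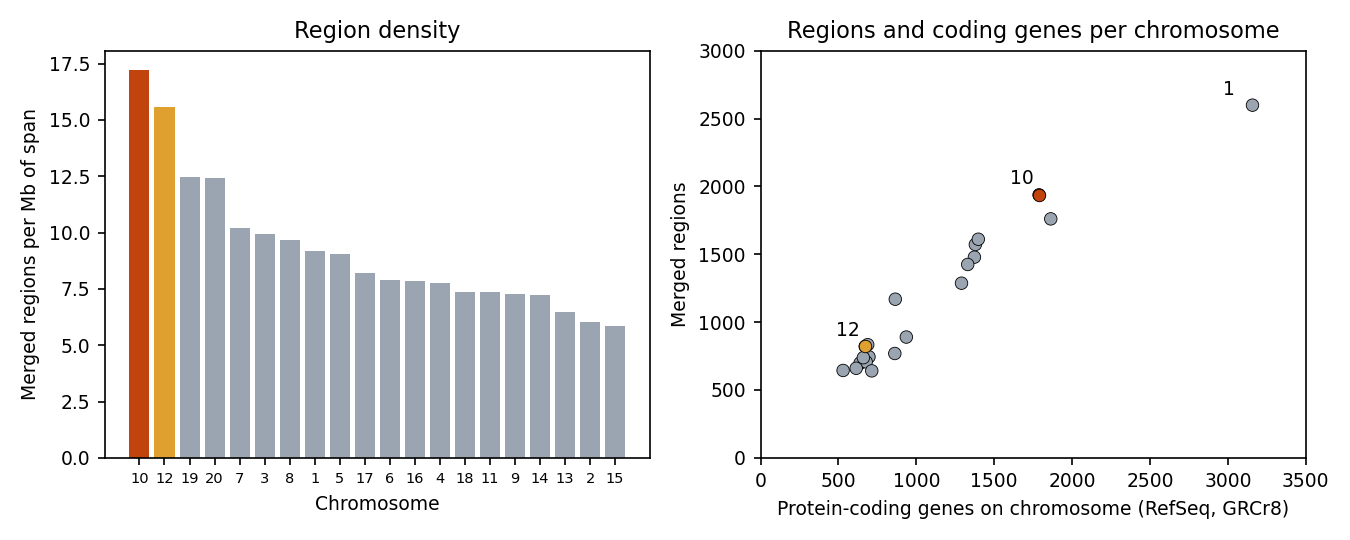
Left, merged regions per Mb of span on each of chromosomes 1 to 20, in falling order, with chromosome 10 (17.2) in dark orange and chromosome 12 (15.6) in yellow. Right, merged regions against protein-coding genes per chromosome, where each point is a chromosome and the points of 10 and 12 lie along the same rising band as the others.

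The density was not a feature of 1 list for either H3 mark. The lists of these marks supplied 92040 of the 94690 peaks behind the choice of chromosomes. High ranks in them are therefore favoured by that choice and are a description. In all 8 H3K23ac and H3K27ac libraries chromosome 10 had the most peaks per Mb of the 20 chromosomes, and chromosome 12 came second in 7 of the 8, and in H3K27ac NC 1 it had rank 3. Chromosome 10 carried 1179 and 946 H3K23ac peaks in the NC libraries and 1229 and 1435 in the SIANK libraries. Its H3K27ac peaks numbered 212 and 1214 in NC and 364 and 1316 in SIANK. On chromosome 12 the H3K23ac lists held 418 and 389 peaks in NC and 518 and 620 in SIANK, and the H3K27ac lists held 81 and 513, then 154 and 566. H4K5ac was different. Chromosome 10 had ranks 10 and 4 in its NC lists and 4 and 3 in its SIANK lists, and chromosome 12 had ranks 7 and 1, then 7 and 4. These H4K5ac counts were small, with 4 and 23 (NC) and 25 and 98 (SIANK) peaks on chromosome 10, and 2 and 12 (NC) and 11 and 43 (SIANK) on chromosome 12.

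H4K5ac put a smaller share of its peaks on chromosomes 10 and 12 than either H3 mark did. Of the peaks that a library had on chromosomes 1 to 20, the percent on both chromosomes was 12.6 and 12.6 (NC) and 12.3 and 12.2 (SIANK) for H3K23ac. It was 11.2 and 12.5 (NC) and 10.9 and 12.4 (SIANK) for H3K27ac. For H4K5ac it was 6.32 and 9.62 (NC) and 7.84 and 8.34 (SIANK). Each of the 4 H4K5ac libraries lay below each of the 8 libraries of the H3 marks. The mean was 12.4% ± 0.207 for H3K23ac, 11.7% ± 0.808 for H3K27ac and 8.03% ± 1.36 for H4K5ac (SD, n = 4 libraries each).

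The geometric mean share of H3K23ac was 1.56 times that of H4K5ac (log2 0.64, SE 0.13), and that of H3K27ac 1.47 times (log2 0.56, SE 0.14). That of H3K23ac was 1.06 times that of H3K27ac (log2 0.08, SE 0.05). On chromosome 10 alone the ratios to H4K5ac were 1.64 and 1.54, and on chromosome 12 alone 1.40 and 1.34. The chromosomes were chosen by the density of merged peaks, and 92040 of the 94690 peaks came from lists of the H3 marks, so the choice itself favours a higher share for those marks. These differences are therefore a description and carry no test.

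List length went with the share in some marks and not in others. The short H3K27ac lists of number 1 had lower shares than the long ones of number 2, while the longest H3K23ac list (17141 peaks) had the lowest share of its mark and the shortest (10720) the highest. The counting interval of the shortest H4K5ac list ran from 2.35 to 13.2% (exact 95% binomial, counting error over peaks only). With the lists of each mark held to equal length by taking the longest peaks, the log2 differences from H4K5ac were 0.44 (H3K23ac) and 0.40 (H3K27ac). With the upper 50% of each list by length they were 0.44 and 0.36. In an alternative chosen after seeing the data, with all 12 lists held to their 100 longest peaks, they were 0.87 and 0.20. The libraries of H4K5ac and H3K27ac then overlapped: H4K5ac NC 2, at 13.5%, lay above all H3K27ac libraries (8 to 13%). It stayed below all H3K23ac libraries (14 to 19%).

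**Figure D2:**
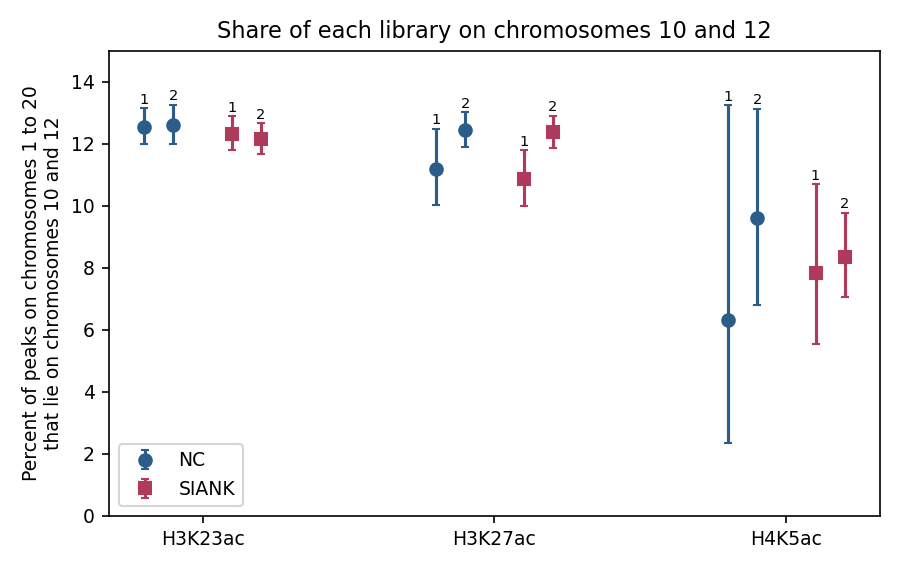
Percent of a library's peaks on chromosomes 1 to 20 that lie on chromosomes 10 and 12, by mark, with NC as blue circles and SIANK as red squares, the replicate number above each point, and bars for exact 95% binomial intervals (counting error over peaks only). All 4 H4K5ac points, from 6.32 to 9.62, lie below the H3 marks' points, from 10.9 to 12.6.

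Along both chromosomes the regions lay in blocks of dense windows set apart by sparse ones. Chromosome 10 was divided into 113 windows of 1 Mb and chromosome 12 into 53, each region being counted where its midpoint fell. The median window held 14 regions on chromosome 10 and 13 on chromosome 12, against 4 elsewhere. Empty windows made up 12.4% and 7.55%, against 23.2% elsewhere. Windows with at least 30 regions made up 23.01% and 15.1%, against 5.09% elsewhere, and 34 of the 159 such windows of chromosomes 1 to 20 lay on chromosomes 10 and 12. The highest count, 86, was on chromosome 3. Of the 20 densest windows 2 were on chromosome 10 and 0 on chromosome 12, which together had 166 of the 2622 windows. The fullest 10% of their windows held 26.4% of their regions, against 40.1% on the other chromosomes.

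On chromosome 10 the fullest windows lay near the far end. The window from 109000001 to 110000000 held 67 regions, the sixth highest count of 2622 windows, and that from 106000001 to 107000000 held 62, the ninth highest. The windows from 86000001 and 85000001 held 48 and 47, and the window from 16000001 held 43, as did 2 others. In the first of these, H3K23ac had 52 and 31 peaks in the NC lists and 48 and 49 in the SIANK lists. H3K27ac had 5 and 43 in NC and 12 and 45 in SIANK, split by replicate number. H4K5ac had 1 peak there, in SIANK 2, and 1 of the 67 regions carried all 3 marks. In the second window H3K23ac had 35 and 29 (NC) and 36 and 49 (SIANK) peaks, and H4K5ac had 1 and 3 in SIANK and 0 in both NC lists.

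In stretches of 10 Mb, the sparsest of chromosome 10 lay early in its length. Windows from 20 to 30 Mb held 27 regions in all, or 2.70 per window, against 28.3 per window from 100 to 110 Mb and 26.8 from 80 to 90 Mb. The longest stretch of chromosome 10 without any region ran for 3.42 Mb, between 78169622 and 81586865. No more than 2 windows in a row were empty, which occurred at 3 places (from 8000001, 21000001 and 79000001).

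On chromosome 12 the fullest windows held fewer regions. Its fullest window, from 22000001 to 23000000, held 43 regions and no H4K5ac region at all. It was followed by the windows from 13000001 (38 regions), 36000001 (37), and 23000001 and 38000001 (35 each, as in the window from 39000001). In the first of these, H3K23ac had 24 and 20 (NC) and 26 and 30 (SIANK) peaks, and H3K27ac had 5 and 28 (NC) and 9 and 30 (SIANK). The window from 36000001 held 3 H4K5ac regions, with 2 peaks in NC 2 and 3 in SIANK 2. No 2 empty windows of chromosome 12 were neighbours, and its longest stretch without a region was 2.22 Mb, from 25639674 to 27855734.

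**Figure D3:**
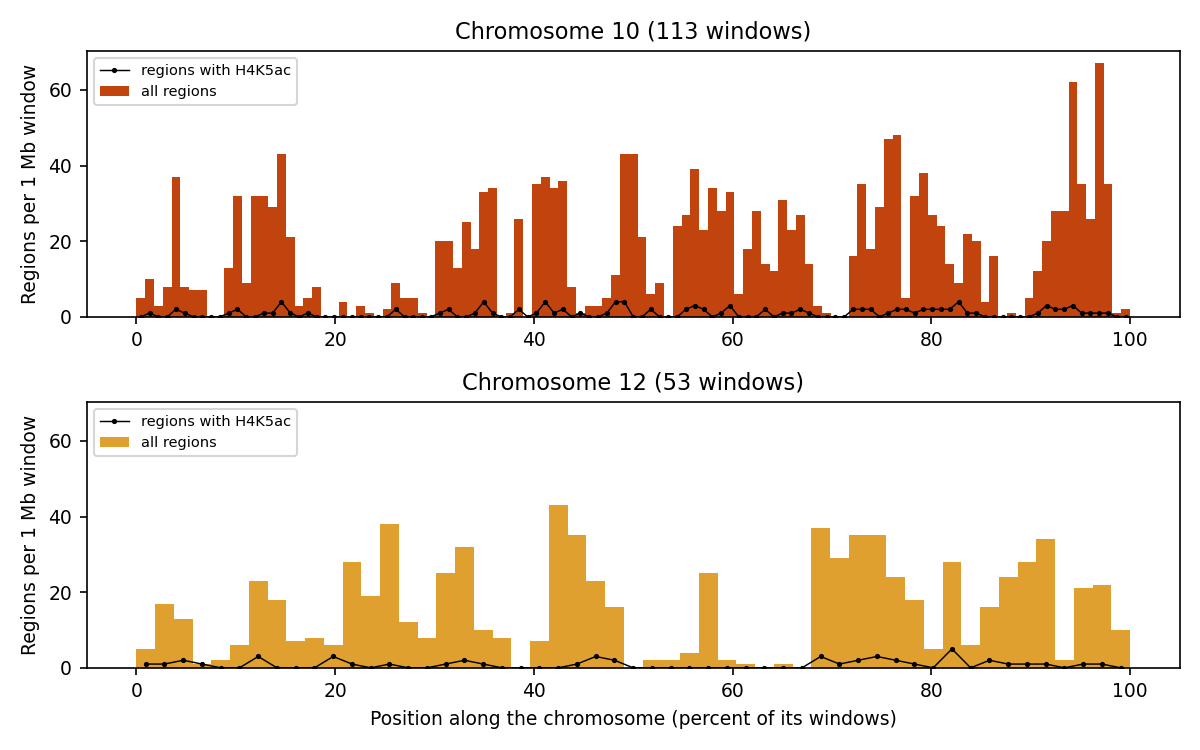
Merged regions per 1 Mb window along chromosome 10 (top, 113 windows) and chromosome 12 (bottom, 53 windows), with position given as percent of the windows of the chromosome; black points are regions carrying H4K5ac. The fullest windows of chromosome 10 hold 67 and 62 regions and lie at its far end, while those of chromosome 12 reach 43.

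Windows rich in 1 of the H3 marks were rich in the other. Over the 166 windows of both chromosomes the counts of regions with H3K23ac and with H3K27ac had a Pearson r of 0.98, and those of H3K23ac and H4K5ac had 0.52. H3K27ac and H4K5ac gave 0.54. The values on the other chromosomes were 0.98, 0.58 and 0.58. These are descriptions: the windows share their libraries and gene content, and many regions count for more than 1 mark. Between single lists, H3K23ac NC 1 and NC 2 had r = 0.93 and H3K23ac NC 1 and SIANK 2 had 0.94. H3K27ac NC 2 and SIANK 2 had 0.97, while H3K27ac NC 1 and NC 2 had 0.72.

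Regions of chromosomes 10 and 12 also stood closer to their neighbours. The median gap between regions was 14.4 kb on chromosome 10 and 16.4 kb on chromosome 12, against 22.3 kb on the other chromosomes and 16.4 kb on chromosomes 19 and 20. A neighbour within 10 kb was found for 62.5% and 59.1% of the regions, against 53.0% elsewhere and 57.2% on chromosomes 19 and 20. Closer spacing is part of what density means, so these values describe its form.

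Both H3 marks without H4K5ac were the usual combination. They were found at 1193 regions of chromosome 10 (61.6%) and 501 of chromosome 12 (61.0%), against 59.5% elsewhere. H3K23ac stood alone at 24.8% and 24.1%, against 25.1%. H3K27ac stood alone at 157 (8.10%) and 75 (9.14%) regions, against 7.22%, and the value of chromosome 12 was the highest of 20. Any H3K23ac was carried by 90.5% and 89.5% of the regions, and any H3K27ac by 73.4% and 74.4%. Each of these last 4 values lay within the range of the other 18 chromosomes. A region carrying both H3 marks had a median length of 1244 bp on chromosome 10 and 1194 bp on chromosome 12 (1148 bp elsewhere), while H3K23ac alone gave 470 and 446.5 bp and H3K27ac alone 449 and 446 bp.

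Of the 20 chromosomes, 10 and 12 had the lowest shares of regions with H4K5ac. The mark was carried by 107 regions of chromosome 10 (5.52%, exact 95% binomial interval 4.55 to 6.63) and 47 of chromosome 12 (5.72%, 4.24 to 7.54), against 8.19% elsewhere (7.81 to 8.57). The other chromosomes ranged from 6.36% (chromosome 7) to 9.95% (chromosome 17). H4K5ac without either H3 mark was found at 25 and 10 regions, or 1.29% and 1.22%, again the 2 lowest values, against 2.22% elsewhere. All 3 marks met at 70 regions of chromosome 10 (3.61%) and 34 of chromosome 12 (4.14%), against 5.26% elsewhere. Per 10 Mb there were still more H4K5ac regions than elsewhere, 9.50 and 8.92 against 6.77, but the excess was 1.40 and 1.32 times, against 2.08 and 1.87 times for H3K23ac and 2.12 and 1.94 times for H3K27ac. The intervals treat regions as units and cover counting error only. A low share of the mark with the fewest peaks is favoured by choosing chromosomes on merged density, so these values too carry no test. The level rests on H4K5ac SIANK 2, the longest H4K5ac list: without it, the percent with H4K5ac on both chromosomes was 2.04 in place of 5.58, against 2.98 elsewhere. With the lists of each mark at equal length it was 1.44, against 1.53 elsewhere.

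The share of regions with H4K5ac was lowest in windows of 30 or more regions, on both chromosomes and elsewhere. The classes were set by merged regions, and lists of the H3 marks supplied 92040 of the 94690 peaks. A lower share of H4K5ac in dense windows is favoured by that, so these values are a description and carry no test. In windows with 1 to 9 regions, 7.63% of the regions of chromosomes 10 and 12 carried H4K5ac, against 6.18% in windows with 10 to 29 and 4.63% in windows with 30 or more. On the other chromosomes the same shares were 10.5%, 8.44% and 5.62%. On chromosome 10 alone they were 8.43%, 6.01% and 4.67%, and on chromosome 12 alone 6.02%, 6.46% and 4.50%, without a steady fall. Each of these values lay below that of the other chromosomes in its class. Windows with 1 to 9 regions held only 166 regions of chromosome 10 and 83 of chromosome 12. The order of the classes on chromosome 12 therefore rests on few regions with H4K5ac. Windows of 30 or more held 47.0% of the regions of chromosomes 10 and 12 and 25.3% of those elsewhere.

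**Figure D4:**
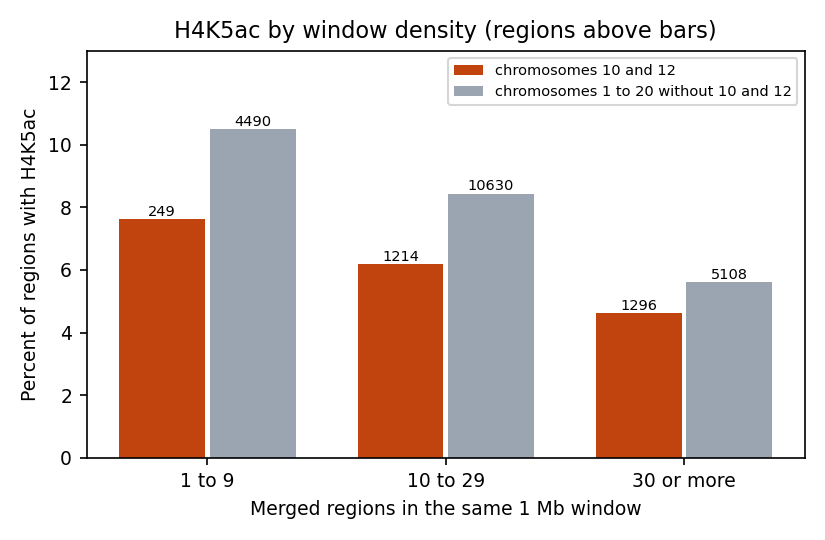
Percent of merged regions with an H4K5ac peak in at least 1 library, by the number of regions in the same 1 Mb window, for chromosomes 10 and 12 (orange) and the other chromosomes from 1 to 20 (grey), with the number of regions above each bar. The bars go from 7.63 to 4.63 on chromosomes 10 and 12 and from 10.5 to 5.62 on the others. Classes are set by merged regions, mostly from peaks of the H3 marks, which favours a lower H4K5ac share in dense windows.

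The median peak length on both together exceeded that on the other chromosomes in 11 of 12 libraries, with a mean ratio of 1.05 (log2 0.07 ± 0.08, SD, n = 12 libraries). For H3K23ac the NC medians were 752 and 763 bp against 708 and 768 elsewhere, and the SIANK medians were 694 and 866 bp against 691.5 and 827. Chromosome 10 was above the other chromosomes in 11 libraries and chromosome 12 in 6. The lists share regions, so this count is no test. The largest log2 ratios, 0.21 and 0.26, came from the H4K5ac NC lists, with 6 and 35 peaks on these chromosomes. With lists of equal length the mean log2 ratio was 0.03 ± 0.06 (SD, n = 12 libraries) and 9 of 12 libraries were higher. Regions of at least 3 kb made up 3.82% on chromosome 10 (74 regions) and 2.68% on chromosome 12 (22), against 2.84% elsewhere.

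The longest region of chromosome 10 ran from 82750435 to 82761123 (10689 bp). In NC its longest H3K23ac peaks spanned 1597 and 2746 bp, in SIANK 1319 and 6619 bp, and H3K27ac peaks of 5154 and 6786 bp came from the libraries of number 2 only. The next, from 73898402 to 73907754 (9353 bp), was listed in all 8 libraries of the H3 marks. There the NC lists had H3K23ac peaks of 3594 and 7462 bp, the SIANK lists of 7744 and 7757 bp. The NC lists had H3K27ac peaks of 1264 and 7716 bp, the SIANK lists of 1911 and 9018 bp, in both conditions longer in number 2. The other 3 of the 5 longest spanned 6630 to 7695 bp. On chromosome 12 the longest region was shorter, from 38871942 to 38878337 (6396 bp), where H3K23ac spanned 4647 and 2081 bp (NC), then 2513 and 6096 bp (SIANK), and H3K27ac was listed by all 4 libraries. None of the 5 longest regions of chromosome 10 and 1 of the 5 of chromosome 12, from 50875378 to 50879914, carried H4K5ac, there in SIANK 2 only.

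A single region of the 2759 on chromosomes 10 and 12 had a peak in all 12 libraries, against 8 of the 20228 elsewhere, a similar share. It lay on chromosome 10 from 108340219 to 108341433 (1215 bp). For H3K23ac the NC peaks there spanned 949 and 942 bp, the SIANK peaks 1127 and 1084 bp. For H3K27ac the NC peaks spanned 390 and 861 bp, the SIANK peaks 531 and 951 bp, so that number 2 was the longer in each condition. For H4K5ac the NC peaks spanned 349 and 570 bp, the SIANK peaks 605 and 930 bp. Of the 154 regions with H4K5ac on these chromosomes, 4 (2.60%) had H4K5ac peaks of all 4 libraries, against 61 of 1656 (3.68%) elsewhere. Besides the region above these were 3 others, singled out after their values were seen. One was on chromosome 10 from 63696678 to 63697644. The other two were on chromosome 12, from 43737599 to 43740825 and from 43742007 to 43743113, as close neighbours in a window of 28 regions. All 3 carried H3K23ac in all 4 libraries and H3K27ac in the libraries of number 2 only.

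Taken over the 3 marks, the share of peaks on chromosomes 10 and 12 differed between SIANK and NC lists by less than the spread between libraries. For H3K23ac alone it differed by more, with 12.2% ± 0.117 in SIANK against 12.6% ± 0.0398 in NC (SD, n = 2 each). Over the 3 marks the geometric mean share was 10.5% in both conditions, a ratio of 0.997 (log2 0.00, SE 0.11; exact two-sided permutation within marks, p = 0.991, smallest possible 0.00926). For H3K23ac both SIANK shares lay below both NC shares, by little (ratio 0.973, log2 −0.04, SE 0.01; exact permutation p = 0.333, the smallest that 2 libraries against 2 allow). For H3K27ac and H4K5ac the conditions overlapped (ratios 0.982 and 1.04; exact permutation p = 0.667 and 1). The number of peaks on both chromosomes was 2.07 times as high in SIANK as in NC over the 3 marks (log2 1.05, SE 0.75), against 2.08 times on the other chromosomes, and did not pass (exact permutation p = 0.120 for each). For chromosomes 10 and 12 that call depended on whether same-numbered libraries were taken as pairs, as the last section gives. For H3K23ac the number of peaks on both chromosomes was 1901 ± 218 in SIANK against 1466 ± 185 in NC, and for H4K5ac 88.5 ± 74.2 against 20.5 ± 20.5 (SD, n = 2 each). For H3K27ac it was 1200 ± 964 against 1010 ± 1014 (SD, n = 2 each), where libraries of number 1 and 2 lay further apart than the conditions. With lists of equal length the log2 difference was −0.00 (exact permutation p = 1), which holding lists equal brings about by construction.

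With all marks pooled, chromosomes 10 and 12 stood at opposite ends of the 20 chromosomes in how many regions were found in SIANK lists only. The margin of chromosome 12 was small, and the marks taken singly did not all share this order. Over all marks, 23.4% of the regions of chromosome 10 had a peak in a SIANK library and in no NC library, the lowest of 20 values, and 29.8% of those of chromosome 12 did, the highest. Over chromosomes 1 to 20 the share was 26.9%, and the other chromosomes ranged from 24.6% (chromosome 3) to 29.81% (chromosome 13, against 29.84% on chromosome 12). Regions found in NC lists only made up 10.8% and 6.70%, against 10.1% over chromosomes 1 to 20. For regions with H3K23ac, SIANK only was 27.5% on chromosome 10, again the lowest, and 35.4% on chromosome 12, the fifth highest, against 32.8% elsewhere. For H3K27ac it was 18.4% on chromosome 10 (rank 15 of 20) and 21.4% on chromosome 12 (rank 2), against 19.4% elsewhere. For H4K5ac it was 78.5% (rank 12) and 74.5% (rank 17), against 79.0% elsewhere. Along chromosome 10 the SIANK-only share over all marks ran from 18.98% (90 to 100 Mb) to 37.0% (20 to 30 Mb, 10 of 27 regions), and along chromosome 12 from 26.5% (40 to 50 Mb) to 36% (0 to 10 Mb, 36 of 100 regions). The exact 95% binomial intervals of these H3K23ac shares, 25.4 to 29.7 and 31.9 to 39.0, did not overlap, but they count regions and not libraries.

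The same peaks can be counted by library, as the number on chromosome 12 over that on chromosome 10, which is not independent of the contrast above. For H3K23ac this ratio was 0.355 and 0.411 in NC and 0.421 and 0.432 in SIANK, and for H3K27ac 0.382 and 0.4226 in NC and 0.4231 and 0.430 in SIANK, so that for both H3 marks both SIANK libraries lay above both NC libraries, if barely. For H4K5ac it was 0.5 and 0.522 in NC and 0.440 and 0.439 in SIANK, on the other side. The exact permutation p was 0.333 for each mark, the smallest possible, and 0.880 over the 3 marks (log2 0.01). Without H4K5ac the log2 difference was 0.12 (exact permutation p = 0.0556, again the smallest possible). This ratio was chosen after the region counts had been seen. Over the 3 marks its log2 difference changed sign with the upper 50% of each list (−0.26), with equal lists (−0.22) and by covered length (−0.12).

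Regions gained in SIANK, meaning those where each SIANK library but no NC library listed the mark, were not more common on chromosome 10 for any mark. On chromosome 12 their share was slightly above that of chromosomes 1 to 20 for H3K23ac and H4K5ac and slightly below it for H3K27ac. H3K23ac gained 99 of 1753 regions on chromosome 10 (5.65%, the second lowest of 20) and 58 of 735 on chromosome 12 (7.89%), against 7.35% of all H3K23ac regions of chromosomes 1 to 20. H3K27ac gained 11 and 5 regions (0.773% and 0.818%), against 0.841%. H4K5ac gained 11 and 6 (10.3% and 12.8%), against 11.5%. The shares of gained regions lay near those of all regions carrying the mark. In the reverse direction H3K23ac lost 3 regions on both chromosomes together (0.121% of 2488, against 0.0963%) and H3K27ac lost 0 of 2034 (against 0.0601%). H4K5ac lost 1 of 154 (0.649%), which was the only lost region of the 1810 with H4K5ac on chromosomes 1 to 20 (0.0552%). A count of 0 here rests on the absence of listed peaks and not on a test. Each call uses all 4 libraries of a mark: with 1 library left out in turn, the gained count of H3K23ac on both chromosomes went from 157 to between 290 and 511, that of H3K27ac from 16 to between 21 and 371, and that of H4K5ac from 17 to between 17 and 115. The lost counts went from 3 to between 5 and 213 (213 without H3K23ac NC 2), from 0 to between 2 and 185, and from 1 to between 1 and 7. With lists of equal length H3K23ac gained 45 and lost 40 regions.

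Of the 157 H3K23ac regions gained on both chromosomes, 119 (75.8%) carried H3K27ac in some library and 87 (55.4%) carried it in an NC library, against 72.3% and 62.3% of all 2488 regions with H3K23ac there. The top gained region by peak length within its libraries lay on chromosome 12 from 47239701 to 47241768, where H3K23ac spanned 1202 and 1456 bp in SIANK and H3K27ac 886 bp in NC 2, then 432 and 1167 bp in SIANK. Next came 61721574 to 61723199 of chromosome 10 and 36950431 to 36952076 of chromosome 12, both with H3K27ac in the libraries of number 2 only. For H3K27ac the top gained regions were on chromosome 10 from 88967267 to 88968431 and from 83671650 to 83672926, which carried H3K23ac in NC 1 and both SIANK libraries, and on chromosome 12 from 23081448 to 23082300. The last had H3K27ac peaks of 587 and 634 bp in SIANK and no other peak.

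The top 3 gained H4K5ac regions were all on chromosome 10 and at places that the H3 marks held in both conditions. At the first, from 103374807 to 103376363, SIANK libraries listed H4K5ac over 884 and 1240 bp. H3K23ac spanned 1348 and 1368 bp there in NC, then 1126 and 1447 bp in SIANK. The others ran from 48878559 to 48882001 and from 64676090 to 64678362. Of the 17 gained H4K5ac regions, 14 (82.4%) carried H3K23ac, 12 of them (70.6% of the 17) in an NC library, against 74.7% and 61.0% of all 154 regions with H4K5ac there. The lost H4K5ac region was on chromosome 10 from 86016347 to 86019557, where the NC lists gave H4K5ac over 442 and 375 bp and all 4 libraries listed H3K23ac.

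The lost H3K23ac regions included that on chromosome 12 from 16340396 to 16342169, listed over 1774 and 735 bp in NC, which was also the longest region of chromosome 12 with H3K23ac alone. The others were on chromosome 10, from 47052020 to 47052820 and from 48451159 to 48451821. Among regions with H4K5ac alone the longest were on chromosome 10 from 11064848 to 11065919, listed over 303 bp in NC 2, 969 bp in SIANK 1 and 739 bp in SIANK 2, and on chromosome 12 from 10509228 to 10510178, listed over 295 bp in NC 2, 593 bp in SIANK 1 and 904 bp in SIANK 2. The longest regions with H3K27ac alone, from 19687734 to 19688974 on chromosome 10 and from 37011606 to 37012972 on chromosome 12, each rested on 1 library.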

How the data were processed

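The authors deposited 1 peak list per library, 12 in all, with a position (chromosome, first and last base) and a length for every peak per the file headers; positions count from 1. No score, read count or p-value is given. BWA and deepTools are named, without versions, per the submitters' processing notes. For the caller, its threshold, the use of a control and the build, the answer is not given in the sources used here. Condition and replicate number came from the sample titles. Peaks of the 12 lists were merged where they overlapped by 1 bp or more (23333 regions, identical with bedtools 2.31.1), and each region was counted in the 1 Mb window of its midpoint. Tests were exact two-sided permutations over libraries with a threshold of 0.05: condition within mark (216 arrangements over 3 marks, 6 within a mark). A planned test between pairs of marks is not reported, because the choice of chromosomes used mostly the peaks of the H3 marks. The permutation and the merging were tested on simulated data. Coding genes per chromosome and gene names came from RefSeq on GRCr8, where 50 of 50 listed symbols were found, and no GRCr8 position was used.

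Chromosomes, lists and tests were chosen with earlier results of these data known. The text names, by rule, the 5 fullest windows and the longest empty run of each chromosome, the 5 longest regions of each, the top 3 gained and lost regions of each mark ordered by peak-length percentile in the library where it was lower, regions of all 12 libraries and the longest region with a single mark. Alternatives were the upper 50% of each list by length, equal lists, covered length, merging within 1000 bp, other spans and windows, blocking on the number of the replicate, 2 marks without H4K5ac, and dropping single libraries. Scripts ran in Python 3.11.15 with scipy 1.17.1, numpy 2.4.6 and pandas 2.3.3, and plots came from matplotlib 3.10.9.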

Additional observations from a re-analysis of the deposited data

Results flagged for a closer look

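The ratio of chromosome 12 to chromosome 10 peaks, chosen after the region counts had been seen, did not overlap between NC and SIANK libraries of any mark. It was higher in every SIANK than in every NC library for the H3 marks and lower for H4K5ac. For H3K27ac the separation was slight, 0.4226 in NC 2 against 0.4231 in SIANK 1. The log2 SIANK minus NC difference was 0.16 (SE 0.11) for H3K23ac, 0.09 (SE 0.07) for H3K27ac and −0.22 (SE 0.03) for H4K5ac. The difference between H3K23ac and H4K5ac was 0.38 and that between H3K27ac and H4K5ac was 0.30. Each had an exact permutation p of 0.0556, the smallest that 36 arrangements allow, so neither could pass 0.05. The H4K5ac ratio of NC library 1 rests on 2 and 4 peaks. The SE of 0.03 for H4K5ac comes from 2 libraries per condition whose ratios lay close together. It is no measure of the counting error of so few peaks.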

How the results depend on the processing

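Of 218 alternative values, 143 were counted as unchanged. For tested differences this meant the same direction and side of the threshold. For region shares it meant staying inside the exact binomial interval, which covers counting error over regions only. Gained and lost counts were judged by the size of the change. Only peak length was set against a spread between libraries, so the count of unchanged values is no measure of replication. The log2 difference from H4K5ac in the share of peaks on chromosomes 10 and 12, which carries no test, kept its sign throughout. It was 0.44 for H3K23ac and 0.36 for H3K27ac with the upper 50% of each list, 0.44 and 0.40 with equal lists and, chosen after seeing the data, 0.73 and 0.41 with lists held to 371 peaks without H4K5ac NC 1. With all lists at 100 peaks it was 0.20 for H3K27ac, and H3K23ac exceeded H3K27ac by 0.67. Without single libraries the values ran from 0.53 to 0.74 and from 0.45 to 0.65. The cause was not tested. The log2 SIANK minus NC difference in peak number was -0.000197 with equal lists. With a replicate block it stayed at 1.05 and passed (exact permutation p = 0.0312, the smallest possible), and with crossed pairs it did not (p = 0.281). Deviations of same-numbered libraries correlated at 0.02, 0.25 and −0.22 in H3K23ac, H3K27ac and H4K5ac, with 2 pairs each. The numbers were therefore not taken to pair libraries, but these correlations do not settle pairing for peak number. In H3K27ac and H4K5ac the list of number 2 was the longer in each condition, and in H3K23ac only in SIANK. The block did not change the calls on share and on the chromosome 12 to 10 ratio, the only others it was run for. The difference in share changed sign in 4 omissions (−0.11 to 0.10, from −0.00). The chromosome 12 to 10 ratio (0.01) was −0.26 with the upper 50%, −0.22 with equal lists, −0.12 by covered length and -0.026 to 0.046 without single libraries, among them −0.01 without H3K27ac NC 1 and −0.0004 without H4K5ac NC 1.

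Density over the other chromosomes was 1.82 (chromosome 10) and 1.56 (chromosome 12) over windows that hold a region. On both chromosomes, regions with both H3 marks only made up 64.7% when merged within 1000 bp, 65.2% with the upper 50%, 30.3% with equal lists and 56.0 to 64.7% without single libraries. Elsewhere such regions made up 61.9% when merged, 62.3% with the upper 50% and 30.3% with equal lists, where the difference was nearly gone. Any H4K5ac was 1.44% with equal lists and 2.04 to 5.96% without single libraries. SIANK only was 22.2% when merged within 1000 bp, 23.15% with the upper 50% and 16.2% with equal lists, against 24.9%, 25.3% and 17.5% elsewhere. Without single libraries it was 19.9 to 34.2%. With the upper 50%, gained regions numbered 79 (H3K23ac), 6 (H3K27ac) and 10 (H4K5ac), and 0 H4K5ac regions were lost. With equal lists H3K23ac gained 45 and lost 40, H3K27ac lost 5 and H4K5ac gained 2. Without single libraries, gains ran from 290 to 511, 21 to 371 and 17 to 115, and losses from 5 to 213, 2 to 185 and 1 to 7. Depth is unknown, and the lists hold no value for unlisted positions.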
